A study of Canis lupus familiaris with 9 samples.

Results

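Urothelial carcinoma arises from the urothelium, the epithelium that lines the bladder, and the invasive form in dogs is studied as a natural counterpart of muscle-invasive bladder cancer in people. In people, bladder tumours differ in sets of genes that follow the state of the urothelial cell (luminal or basal) and the amount of stroma and immune cells in the biopsy. Tumours can also differ in single genes that are transcribed at a moderate level in some and hardly at all in others. The 102 genes described here were chosen for measured values of that kind, in CPM (a count relative to its library's total). Each was at 10 CPM or more in at least 2 bladder tumours and under 0.5 CPM in at least 2 others.

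The study sequenced RNA of 9 bladder tumours found by screening Scottish Terriers, a breed prone to this cancer, with 1 library per tumour. All carry the diagnosis of invasive urothelial carcinoma, and the labels give no age, sex, treatment, stage or normal tissue. They form 1 group, numbered here from 1 to 9 in accession order. The labels do not say that each tumour came from a different dog. With 1 library per tumour, technical spread cannot be told apart from spread between tumours.

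The genes were chosen by their CPM in tumours 1, 3, 5, 7, 8 and 9, the 6 libraries that rarely list moderately abundant genes at 0. Tumours 2, 4 and 6 had no part in the choice. "On" means 10 CPM or more, "off" means under 0.5 CPM and "between" means the range from 0.5 to 10 CPM. Of 32183 genes in the deposited table, 9418 were on in 2 or more of the 6 tumours, and 102 of these (1.08%) were also off in 2 or more. The other 9316 serve below for comparison. The spread of the 102 genes over these 6 tumours is a description only, because it is what selected them. The table gives Ensembl dog gene identifiers without symbols, and none of them matched the reference table at hand, so no function, cell type or genome position can be attached to a member. For the same reason the labelled tissue could not be checked against urothelial markers.

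Totals of the 6 libraries ran from 66228689 counts in tumour 9 to 132750295 in tumour 5, and those of tumours 2, 4 and 6 from 19750014 to 46405805. The on threshold of 10 CPM equals 662 counts in tumour 9, and the off threshold of 0.5 CPM equals 33.1 counts there. The smallest count treated as detection, 3, equals 0.0453 CPM in tumour 9 and 0.0226 CPM in tumour 5. These limits allow for counting error alone, because the reads carry no molecular identifiers and need not stem from independent molecules. In bulk tissue, fewer cells of a type and less RNA per cell cannot be told apart.

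Most off values were listed at 0. The 102 genes have 612 values in the 6 tumours, of which 240 were on, 246 off and 126 between. Of the off values, 151 (61.4%) were 0 counts, 13 were 1 to 3 counts and 82 were higher, up to 66 counts. In 31 genes every off tumour was at 0 counts. The median on value was 20.03 CPM and the highest 2101 CPM, and 119 of the on values lay under 20 CPM. Only 18 genes reached 100 CPM in any of the 6 tumours. Most members were thus modestly expressed where they were on.

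Genes that were strictly on or off were the minority. In 21 of the 102 no tumour of the 6 lay between the thresholds, in 36 there was 1 tumour between and in 45 there were 2. By number of tumours, 73 genes were on in 2 of the 6, 22 in 3 and 7 in 4. The thresholds also cut through a continuum. At the on threshold, the second highest value of the nearest member was 10.02 CPM and that of the nearest gene outside 9.97 CPM. At the off threshold, the second lowest value was 0.499 CPM in the nearest member and 0.520 CPM in the nearest gene outside. In 29 members the second highest value was under 12 CPM, and 39 genes with 2 off tumours missed the rule with a second highest value of 8 CPM or more.

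**Figure D1:**
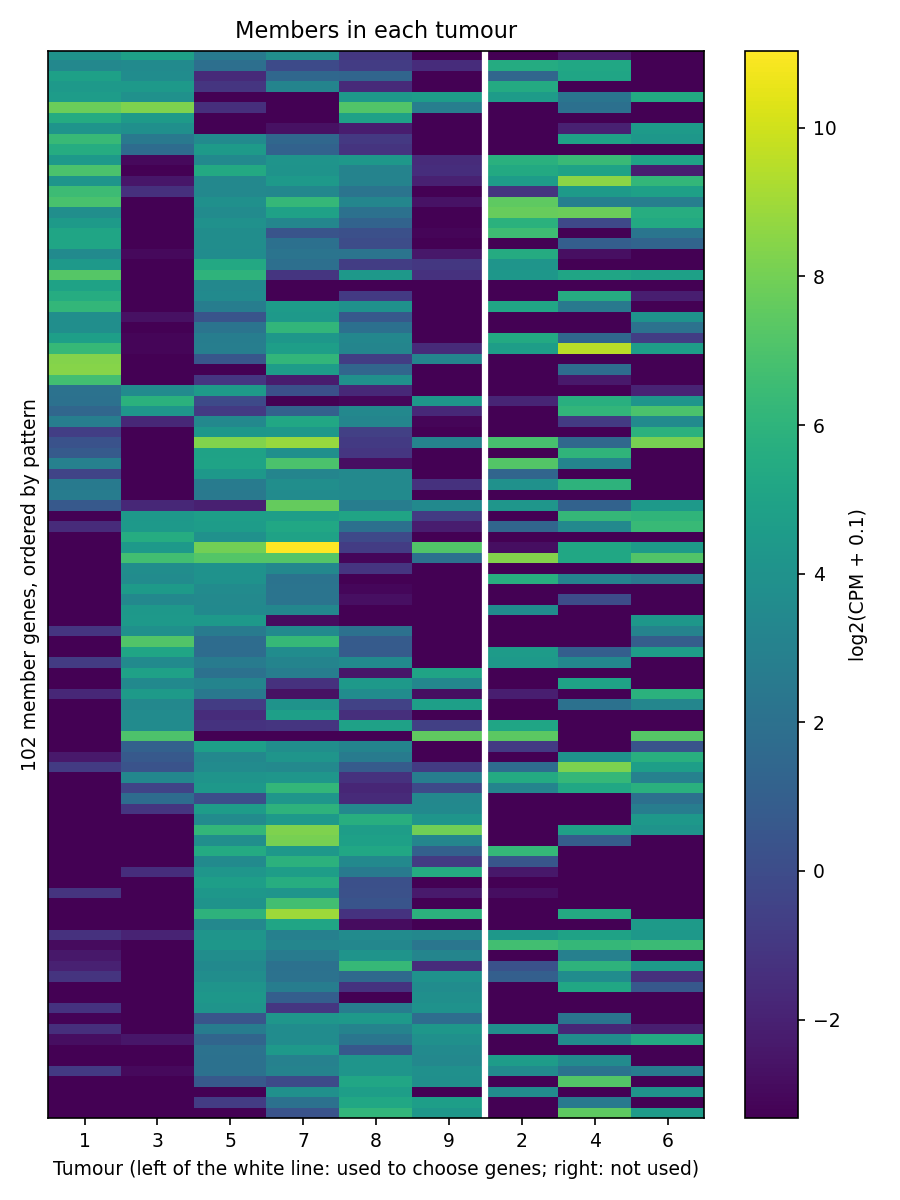
Log2(CPM + 0.1) of the 102 genes (rows, ordered by their on, between and off states) in each tumour (columns). The 6 tumours left of the white line chose the genes, and the 3 on the right did not; dark cells in tumours 1, 3 and 9 fill far more of the plot than in tumours 5, 7 and 8.

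The off states were uneven between tumours. Tumour 9 was off in 63 of the 102 genes, tumour 3 in 61 and tumour 1 in 58. Tumour 8 was off in 32, tumour 5 in 17 and tumour 7 in 15. On states were most frequent in tumours 5 and 7, at 59 and 56 genes. They numbered 33 in tumours 3 and 8 each, 32 in tumour 1 and 27 in tumour 9. Tumour 8 held the most genes between, 37, and only 6 of its off genes were at 0 counts, against 41 in tumour 1, 47 in tumour 3 and 43 in tumour 9. In tumours 5 and 7, 7 genes each were at 0.

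The 9316 other genes leaned the same way, although their off shares in the 6 tumours are limited by the rule. A gene on in 2 or more and off in 2 or more of the 6 is a member, so none of them is off in 2. Among them tumours 1, 3 and 9 were off in 1.09%, 1.78% and 0.880%, and tumours 5, 7 and 8 in 0.0644%, 0.129% and 0.0537%. Tumours 1, 3 and 9 also had counts for fewer genes of the table, 13195 to 13826, than tumours 5, 7 and 8, with 15736 to 17834. After every library of the 6 was thinned to the total of tumour 9, 100 genes met the rule, 98 of them among the 102. The part of RNA quality or input in these off states was not tested.

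**Figure D2:**
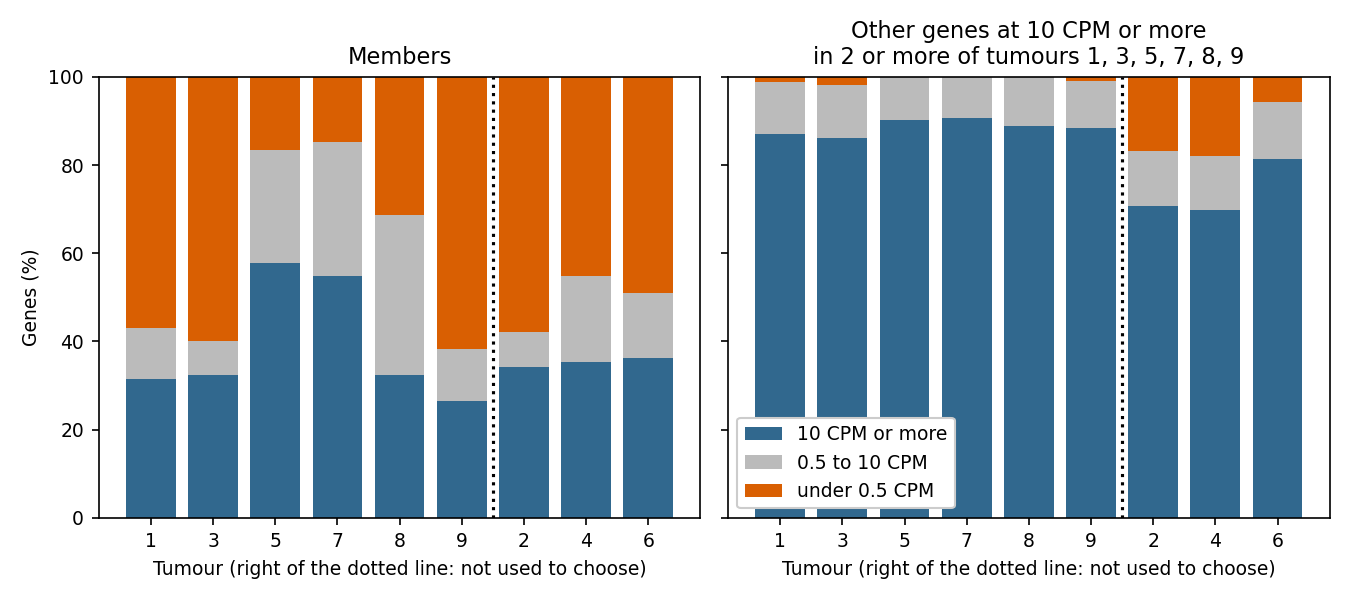
Percent of genes on (10 CPM or more), between and off (under 0.5 CPM) in each tumour, for the 102 members (left) and the 9316 other genes (right). Members were off in 14.7% (tumour 7) to 61.8% (tumour 9) of cases among the 6 tumours that chose them. Among other genes the off share is visible mainly in tumours 2, 4 and 6. These are the shallowest libraries, and the rule did not limit their off share.

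No single division of the tumours ran through the 102 genes. They showed 65 different patterns of on, between and off, 44 of them held by 1 gene and none by more than 5. Counting only the off tumours, there were 32 combinations, and the 3 most frequent held 48 genes. Tumours 3 and 9 alone were off in 21 genes, tumours 1 and 3 in 17, and tumours 1 and 9 in 10. A further 5 genes were off in exactly tumours 1, 3 and 9, so 53 of the 102 were off only among these 3 libraries.

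Of the 21 genes off in exactly tumours 3 and 9, tumour 1 was on in 16, tumour 7 in 15 and tumour 5 in 14, while tumour 8 was on in 5. Their mean over on tumours ran from 11.8 to 70.1 CPM. Of the tumours the rule did not use, tumour 2 was on in 13 of these 21 and off in 7, tumour 4 on in 7 and off in 9, and tumour 6 on in 9 and off in 7. Tumours 8 and 9 were each on in 12 of the 17 genes off in tumours 1 and 3, and tumours 5 and 7 each in 10. Here tumour 2 was on in 6 and off in 10, tumour 4 on in 7 and off in 6, and tumour 6 on in 5 and off in 10. Where tumours 1 and 9 were off (10 genes), tumour 7 was on in 9, tumour 3 in 7 and tumour 5 in 6. In these 10 genes tumour 2 was on in 2 and off in 6, tumour 4 on in 5 and off in 4, and tumour 6 on in 5 and off in 2.

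Another 49 genes were off in at least 1 of tumours 5, 7 and 8, the libraries in which off values were rarest among other genes. In 13 of these genes 2 or 3 of these libraries were off, and in 2 genes all 3 were. Tumours 5 and 7 were both off in 7 genes, 4 of which were on in tumours 1 and 3. A count restricted to tumours 5, 7 and 8, requiring 1 on and 1 off, gave 116 genes, 42 of them among the 102; this count was added after the data were seen.

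Pairs of tumours differed widely in how often they took opposite states. Tumours 1 and 9 were opposite in 53 genes, with 29 on in tumour 1 and off in tumour 9 and 24 the reverse, and both were on in only 1 gene. Tumours 3 and 5 were opposite in 51 genes, 40 of them on in tumour 5. By contrast, tumours 5 and 7 were opposite in 10 genes, 5 in each direction, and both on in 34. Tumours 3 and 9, opposite in 42 genes, were both off in 35. These counts come from the values that chose the genes and are bounded by each tumour's number of off genes. That number was 17 in tumour 5 and 15 in tumour 7, against 58 in tumour 1 and 63 in tumour 9. They are not read as likeness between tumours.

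Among the 7 genes on in 4 of the 6 tumours and off in 2, the 2 with the highest mean over their on tumours were ENSCAFG00000012272 and ENSCAFG00000013918. For ENSCAFG00000012272, tumour 7 reached 2101 CPM (222693 counts), tumour 5 252.5 CPM, tumour 9 140.3 CPM and tumour 3 21.0 CPM. Tumour 1 held 0 counts and tumour 8 0.489 CPM (48 counts). Among the tumours not used for the choice, tumour 4 held 37.7 CPM, tumour 6 22.2 CPM and tumour 2 0.0438 CPM (1 count). The on values thus differed 100-fold among themselves, from tumour 3 to tumour 7. With a value of 0.489 CPM in tumour 8, the membership of this gene rests on the exact off threshold: the exact binomial 95% interval there is 0.361 to 0.648 CPM.

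For ENSCAFG00000013918, tumour 7 held 302.3 CPM, tumour 9 238.2 CPM, tumour 5 72.4 CPM and tumour 8 24.9 CPM. Tumours 1 and 3 were both at 0 counts, with floors of 0.0327 and 0.0431 CPM. Of the tumours not used, tumour 4 was at 29.4 CPM and tumour 6 at 16.4 CPM, and tumour 2 was at 0. Taking the floor of 3 counts per library, the lowest on value over the 9 tumours was about 125-fold above 0.132 CPM. That is the largest floor among the tumours at 0. All 9 libraries were either on or off for this gene, as they were for ENSCAFG00000012272.

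Among the 9 genes on in 2 of the 6 tumours and off in 4, the highest means were those of ENSCAFG00000012676 and ENSCAFG00000018951. ENSCAFG00000012676 had 12139 counts in tumour 9 (183.3 CPM) and 9140 counts in tumour 3 (131.2 CPM), and none in tumours 1, 5, 7 and 8. Among the tumours the rule did not use, tumour 2 was at 169.9 CPM and tumour 6 at 152.9 CPM, while tumour 4 was at 0. The 4 on values averaged 159 ± 22.5 CPM (SD, n = 4) and differed at most 1.40-fold. The lowest of them was about 864-fold above the floor of 0.152 CPM in tumour 4, the shallowest of the 5 libraries at 0. No library lay between these levels, and tumour 5, with 132750295 counts in all, held none for this gene.

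For ENSCAFG00000018951, tumour 1 held 101.9 CPM and tumour 8 14.4 CPM. Tumour 5 held 0.392 CPM (52 counts), tumour 7 0.113 CPM (12 counts), and tumours 3 and 9 held 0 counts. Tumours 2 and 6 were at 0 and tumour 4 at 0.101 CPM (2 counts). It was therefore off in all 3 tumours not used, and its 2 on values differed 7.07-fold.

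Only 1 pair of members stood in adjacent rows of the deposited table, ENSCAFG00000030631 and ENSCAFG00000025371, named here after their values were seen. For the first, tumour 3 held 302.6 CPM, tumour 1 223.9 CPM and tumour 8 139.8 CPM. Lower levels of it were found in tumour 9 (6.92 CPM), tumour 4 (3.85 CPM) and tumour 5 (0.286 CPM), and 0 counts in tumours 2, 6 and 7. For the second, tumour 1 held 45.3 CPM, tumour 8 29.1 CPM and tumour 3 22.8 CPM, and the other 6 held 0 counts. Both were on in tumours 1, 3 and 8 alone. Row order was not read as genome position, and 4 pairs of successive members lay within 10 rows, none with identical patterns.

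**Figure D3:**
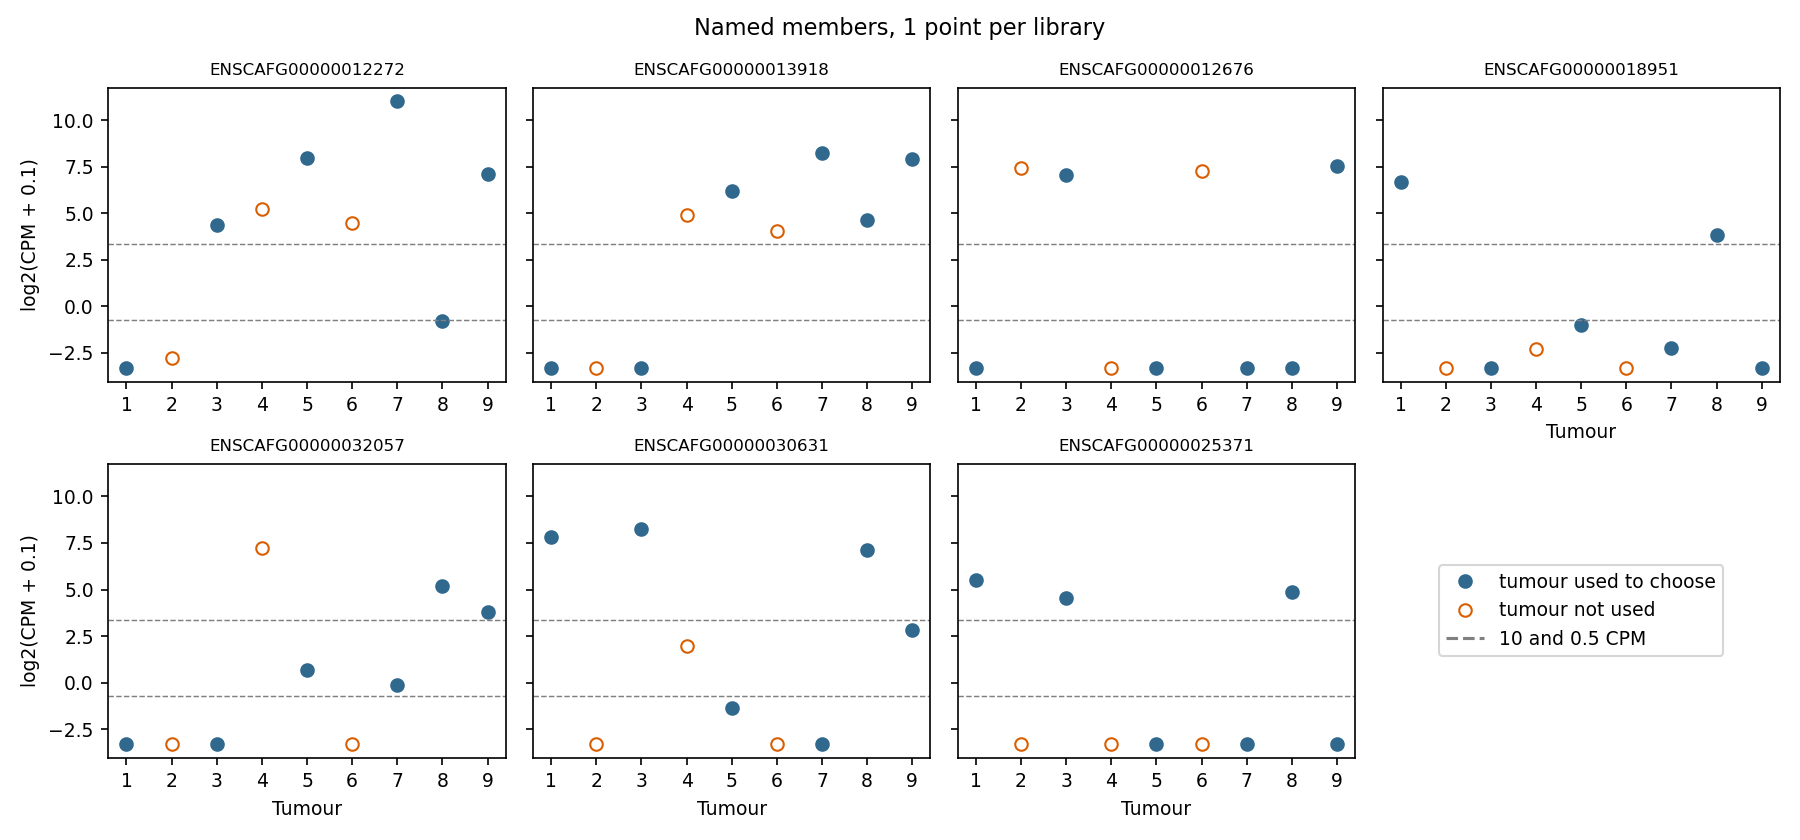
Log2(CPM + 0.1) of 7 members in each of the 9 tumours, 1 point per library; filled points are the tumours that chose the genes, open points the 3 others, and dashed lines the 10 and 0.5 CPM thresholds. ENSCAFG00000012676 falls into a high level in tumours 2, 3, 6 and 9 and 0 in the other 5, whereas the on values of ENSCAFG00000012272 spread over 100-fold.

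Tumours 2, 4 and 6 gave values independent of the choice. These libraries are shallower and more often list genes at 0: among the 9316 other genes tumour 2 was off in 16.9%, tumour 4 in 18.1% and tumour 6 in 5.65%. The 102 genes were off more often, in 59 genes (57.8%) in tumour 2, 46 (45.1%) in tumour 4 and 50 (49.02%) in tumour 6. They were on in 35, 36 and 37 genes (34.3%, 35.3% and 36.3%), respectively, against 70.6%, 69.7% and 81.5% of the other genes. In all 3 tumours together, 20 of the 102 genes were off (19.6%, against 1.83% of all 9418 genes) and 8 were on (7.84%, against 49.9%). In 37 genes none of the 3 tumours was on.

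Low abundance went with these states, so the shares were set out by mean CPM over the 6 tumours. Of the 102 genes, 56 had a mean under 10 CPM, 41 a mean of 10 to 100 CPM and the other 5 a higher one. Under 10 CPM, 17.9% of the members were off in all 3 tumours, against 9.69% of 588 other genes. At 10 to 100 CPM the shares were 24.4% of members and 1.48% of 6428 other genes. Members on in all 3 tumours made up 7.14% under 10 CPM, where other genes gave 5.78%, and 9.76% at 10 to 100 CPM, where they gave 39.5%. The gap between members and others was thus wider at 10 to 100 CPM, but the selection bears on this difference. The classes use the mean over the same 6 tumours that chose the members. Other genes with a mean under 10 CPM were on in some of these tumours, so they had to be lower in the rest. They thus resemble members by selection, and the difference between the classes is not read as an effect of abundance. These shares carry no test, since genes are not replicates.

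Being on in 1 of tumours 2, 4 and 6 and off in another was also found in many other genes. It held for 43 of the 102 genes (42.2%), against 24.5% of all 9418. Within classes of mean CPM over the 6 tumours the shares were nearly level. They were 48.2% of members against 46.4% of other genes under 10 CPM, and 31.7% against 29.9% at 10 to 100 CPM. As said above, the other genes under 10 CPM resemble members by selection. Without tumour 2 the number was 22 of 102 and without tumour 6 it was 26, against 12.2% and 17.2% of the 9316 other genes. Without tumour 4 it was 32, against 11.7%. In each case the members' share was the higher one, but these shares were not set out by mean CPM. They therefore do not show whether members exceeded other genes of like abundance.

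**Figure D4:**
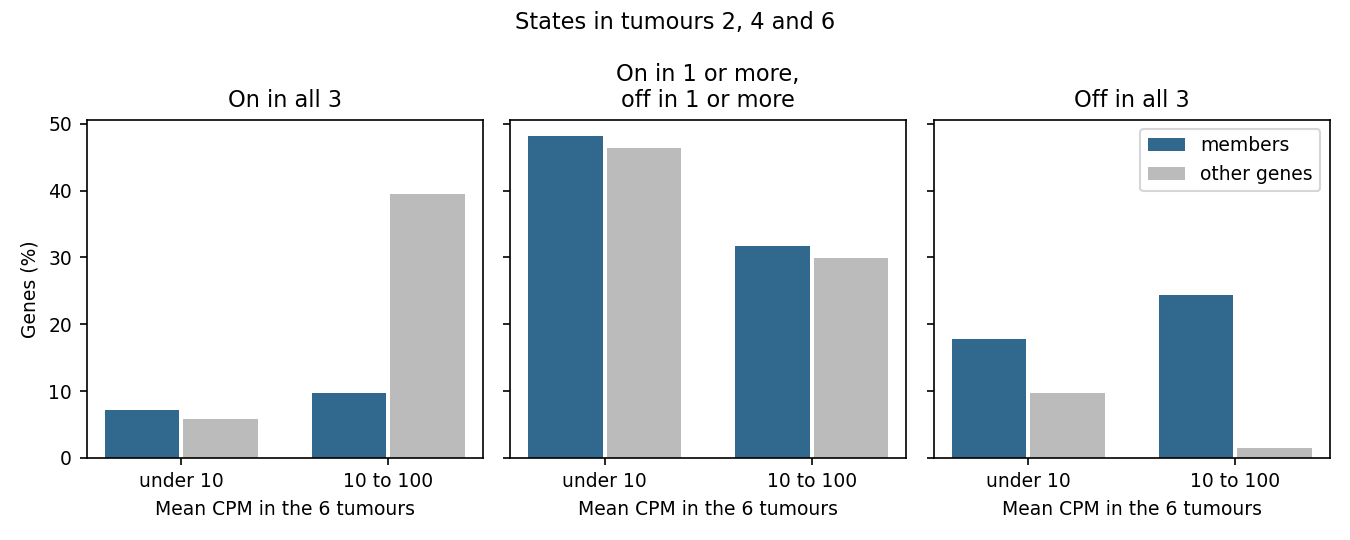
Percent of members (blue) and of other genes (grey) that were on in all of tumours 2, 4 and 6, on in 1 or more and off in 1 or more of them, or off in all 3, by mean CPM in the 6 tumours that chose the members. The middle panel shows nearly equal bars, while at 10 to 100 CPM members were off in all 3 in 24.4% and other genes in 1.48%.

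States in the 3 libraries were also compared one by one with those in the 6, leaving out values between. Tumour 2 took the same state as tumour 1 in 53 genes and the opposite one in 30, the highest share of equal states of the 18 pairings (63.9%). The lowest was tumour 2 with tumour 5, at 29 equal and 39 opposite (42.6%). Tumour 4 was most often equal to tumour 9 (60.0%), mostly through 33 genes off in both. Tumour 6 lay between 49.3% and 53.9% with every one of the 6. Of the 53 genes equal in tumours 2 and 1, 37 were off in both. These shares depend on how many genes each tumour was off in, 58 in tumour 1 and 17 in tumour 5. They are not read as likeness between tumours.

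A test of variability was run on tumours 2, 4 and 6 alone, over every gene whose mean there reached 1 CPM. It asks whether a gene spread more between the 3 tumours than the trend for its abundance. In edgeR's deviance test with Benjamini-Hochberg adjustment, 2 members passed an adjusted p of 0.05 among 76 tested, beside 0.743% of all 12928 genes tested. At an unadjusted p under 0.05 there were 15 of the 76, beside 7.91% of all genes tested. The other 26 members were too low to test, 15 of them at 0 counts in all 3 tumours. A member that is off in some of the 3 can pass this filter only through a tumour where it is high, so these counts lend the list no support.

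The 2 genes called were ENSCAFG00000012676, described above (edgeR adjusted p = 0.0459), and ENSCAFG00000032057, named for this result (edgeR adjusted p = 0.0194). ENSCAFG00000032057 was at 148.6 CPM in tumour 4 and at 0 in tumours 2 and 6. Of the tumours that chose it, tumour 8 held 36.5 CPM, tumour 9 13.9 CPM, tumour 5 1.48 CPM and tumour 7 0.821 CPM, and tumours 1 and 3 held 0 counts. Both calls were lost without tumour 6, where edgeR adjusted p was 0.195 for ENSCAFG00000012676 and 0.241 for ENSCAFG00000032057. Both were lost without tumour 4 as well: ENSCAFG00000032057, high in that tumour alone of the 3, could then not be tested, and edgeR adjusted p of ENSCAFG00000012676, at 0 there alone, was 0.995. ENSCAFG00000012676 also missed the threshold with DESeq2 size factors (0.0538) and with no abundance filter (0.0643). Of the named members, ENSCAFG00000012272 and ENSCAFG00000013918 did not pass (edgeR adjusted p = 0.786 for each), and ENSCAFG00000018951 was too low to test.

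Whether the deposited counts were whole numbers was a further measure that the rule did not use. Estimated counts can stop being whole where reads are divided between features that share sequence. Whether this was the source of the values that were not whole here was not tested. Of values above 0.5, 39.7% were not whole in the 102 genes (250 of 630) and 72.5% in the 9316 others. Members had the lower share in all 9 tumours, from 27.1% in tumour 8 to 52.6% in tumour 7, beside 50.3% in tumour 4 to 85.4% in tumour 7 among the others. This gap was narrower within classes of mean CPM over the 6 tumours. Under 10 CPM the shares were 32.9% and 39.2%, and at 10 to 100 CPM 45.7% and 68.6%. These classes rest on the tumours that chose the members, so the narrowing is not read as an effect of abundance. In 14 members (13.7%) every value was whole, against 3.31% of the others, and in 6 (5.88%) none was, against 24.96%. Members had fewer values above 0.5 per gene, 630 in 102 genes beside 80553 in the 9316 others. The rule, which picks genes with off values, thus bears on these shares. Under 10 CPM, every value was whole in 23.2% of members and 13.6% of the others, and at 10 to 100 CPM in 2.44% and 3.45%. ENSCAFG00000012676 was among the 6 members with no whole value above 0.5: it was not whole in each of the 4 tumours where it was on.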

How the data were processed

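RNA was taken from cystoscopic biopsies of 9 canine bladder tumours, per the labels' protocols. The authors deposited estimated counts per Ensembl gene, not scaled to depth, as the values show (24.1% are not whole numbers, at a tolerance of 0.001). The build was CanFam3.1, per the submitters' processing notes; no source used here gives the aligner, counting tool or strand use, so reads of overlapping, antisense or near-identical genes may be split or merged. Columns were matched to samples by title; that of tumour 1 lacks the title's first letter. Counts were rounded, and CPM used column sums. The members and lists were chosen with earlier results of these data known. The marker lists were not run, because 0 identifiers matched a symbol.

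Variability in tumours 2, 4 and 6 was tested in edgeR 4.0.16 (R 4.3.3): TMM factors, mean of at least 1 CPM, intercept-only deviance at the trended dispersion against chi-square on 2 degrees of freedom, Benjamini-Hochberg adjustment over all genes tested. The test was checked on simulated data. Alternatives included DESeq2 1.42.0. Named genes are the 2 members on in 4 and off in 2 of the 6 tumours, and the 2 on in 2 and off in 4, with the highest mean over on tumours; 5 others were named after their values were seen. Intervals are exact (Clopper-Pearson, 95%) and cover counting error only.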

Additional observations from a re-analysis of the deposited data

Results flagged for a closer look

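Of 12 measures examined over the 9 tumours, 1 was marked because a tumour's gap to its nearest neighbour took up a large part of the range; chance marks about 5% of such measures. The summed level of the 102 genes was 5648 CPM in tumour 7 and between 1083 and 3274 CPM in the 8 others. ENSCAFG00000012272 alone made up 2101 CPM of it, and without this gene the sum in tumour 7 was 3546 CPM, beside 3237 CPM in tumour 4, the next highest.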

How the results depend on the processing

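The number of genes meeting the rule, 102, moved with the tumours used, the number of tumours that had to differ and the thresholds. It was 1661 when the rule was applied to all 9 tumours, 977 when 1 on and 1 off tumour sufficed, 305 with on at 5 CPM, 34 with on at 20 CPM and 46 with off meaning 0 counts. Without 1 of the 6 tumours it was 40 (without tumour 3) to 70 (without tumour 8), 47 without tumour 1 or 9, 59 without tumour 5 and 65 without tumour 7. With fewer tumours left to meet the rule these counts can only fall, and all genes left were among the 102. TMM scaling gave 97 genes, 95 of them among the 102, and DESeq2 size factors gave 98, 96 of them among the 102. Off under 0.25 CPM gave 73 and off under 1 CPM gave 153. The 2 members called variable in tumours 2, 4 and 6 became 1 with DESeq2 size factors, 1 with no filter, 0 at an adjusted p of 0.01 and 0 as DESeq2 dispersion outliers, which marked 0 of all 12928 genes; without 1 of the 3 tumours it was 0 to 2. Without tumour 4 the count was again 2, but of other members, ENSCAFG00000011454 and ENSCAFG00000000586, named after their values were seen; 0 of the first 2 were called and 1 of them was no longer tested. Members on in 1 and off in another of these 3 tumours numbered 43, and 44 to 48 under other scaling or thresholds, and 22 to 32 without 1 tumour. Genes meeting the rule with no value between, the list being chosen again under each setting, numbered 21, 19 with TMM scaling, 13 to 32 without 1 of the 6 tumours, and 113 with thresholds of 5 and 1 CPM. The share of values not whole fell from 39.7% to 15.7% at a tolerance of 0.05, and from 72.5% to 34.4% in other genes. Pairs of successive members in adjacent rows numbered 1, and 4 within 10 rows. No paired analysis was possible because all samples form 1 group. Tumours 2, 4 and 6 are the shallowest libraries, and 1 count is already 0.0438 CPM in tumour 2.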
